A study of Mus musculus with 24 samples.

Results

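The comparison described here set the whole pancreas of 3 female C57Bl/6J mice labelled circadian disrupted against that of 3 females labelled normal circadian, both taken on day 8 at zeitgeber time (ZT) 176 h. These 6 mice, chosen by their labels, were 6 of the 24 in the series, whose title concerns early and late reentrainment of the mouse pancreas. The series held both conditions and both sexes at an early time, day 1 at ZT 8 h, and at a late time, day 8 in females and day 9 at ZT 200 h in males, with 3 mice in each of its 8 groups. Gene expression was measured by RNA sequencing of RNA prepared from the pancreas after cervical dislocation. The sources used here do not give the way the rhythm was disrupted, the lighting after it or the age of the mice, and they name no engineered allele for any group. The question was which differences between the conditions were present across all genes at this late day, and whether they were those seen in separate females on day 1.

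The mammalian circadian clock is a transcriptional feedback loop. The activators CLOCK and BMAL1 (gene Arntl) bind E-boxes and drive genes such as the Period and Cryptochrome genes, Ciart, Nr1d1 and Dbp, whose products repress or modulate the loop, while the REV-ERB receptors (Nr1d1, Nr1d2) repress Arntl through ROR response elements. The PAR bZIP factors Dbp, Tef and Hlf pass the rhythm on through D-boxes, and in the pancreas a clock operates in both the enzyme-secreting acinar cells and the islets.

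The 6 libraries held 31325562 to 62390463 counts, the deepest being that of disrupted mouse 3, and 17692 to 19491 genes with a count in each. The 33 acinar enzyme genes listed took 547500 to 614700 CPM (a gene's counts scaled to a fixed library total) in these mice, so the defining products of acinar cells were abundant in all 6. Markers of other cells set some libraries apart. The 14 B cell markers summed to between 3.89 and 13.9 CPM in the normal mice and to 83.5, 6.55 and 59.3 CPM in disrupted mice 1, 2 and 3. The 6 red blood cell markers summed to between 15.9 and 16.8 CPM in the normal mice and to 130.4, 9.45 and 22.8 CPM in the disrupted mice. Disrupted mouse 1 also had the lowest sum of the 24 islet genes, 255 CPM against 434 to 557 CPM in the other 5 mice, and the highest sum of 6 smooth muscle genes, 23.8 CPM against 8.34 to 11.0 CPM. The part of these cell types in the results below was not tested, and values without each mouse are given where they end a call.

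On day 8, 10 genes rose and 11 fell in the disrupted pancreas, out of 14000 tested (0.15% called in either direction, 0.0714% higher and 0.0786% lower). A gene was called when its p-value from edgeR's quasi-likelihood test, Benjamini-Hochberg adjusted over the 14000 genes, was under 0.05; all adjusted p-values below are of this kind unless another tool is named. The higher genes were the clock genes Ciart and Hlf with Coq10b, Cdr2, Ccbe1, Vac14, Mfap1b, Raver1, Stard3 and Gm43314, a transcript of unknown function. The lower genes were Ranbp3l, Arhgef38, Ypel2, Aqp8, S1pr2, Sphk2, Rassf3, Spata13, Naa35 and the noncoding transcripts 1810019D21Rik and 4933431E20Rik. For 8 of them, 3 higher and 5 lower, the change was over 2-fold. At an unadjusted p under 0.05 there were 1495 genes (10.7%). Upper quartile scaling in place of trimmed means gave 10 higher and 17 lower genes. In whole tissue, fewer cells of a type and less RNA per cell cannot be told apart.

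**Figure D1:**
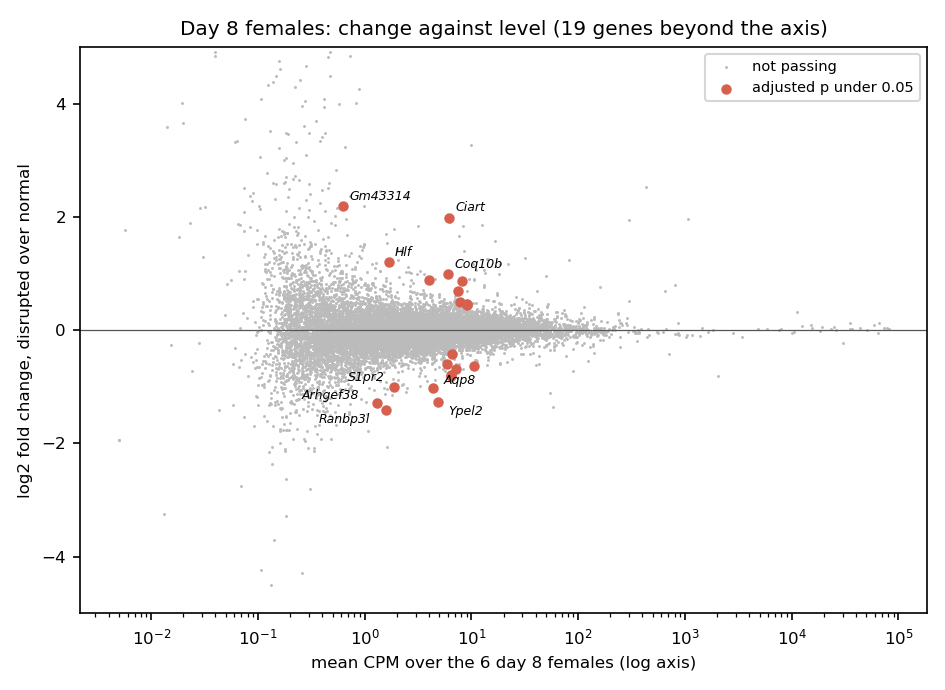
Each point is 1 of the genes tested, at its mean CPM over the 6 day 8 females (log axis) and its log2 fold change, disrupted over normal; orange points passed the adjusted p threshold of 0.05. The called genes lie at low to middle levels. Among abundant genes, Amy2a5 lies near 0 (0.04), whereas Prss3 lies at 1.96 and Reg2 at -0.81, neither of these passing. Beyond the axis limits of 5 on the log2 scale lie 19 genes.

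Promoters of called clock and other genes are shown because E-boxes are the sites through which CLOCK and BMAL1 act. The promoter window ran from 250 bases before to 50 after a gene's RefSeq start (build GRCm38.p6), and both strands were searched for the E-box CACGTG, the D-boxes TTATGTAA and TTACGTAA, and the ROR elements TAGGTCA and TGGGTCA. Of 32851 promoters, 7.15% held the E-box, 1.06% a D-box and 6.45% a ROR element. A promoter was found for 18 of the 21 called genes, of which 4 held the E-box (Ciart, Coq10b, Vac14 and Aqp8), 1 a D-box (Coq10b) and 1 a ROR element (S1pr2). A promoter was also found for 14 of the 16 clock genes that peak or dip at this hour. Of these 14 genes, 5 held the E-box, 1 a D-box (Per3) and 2 a ROR element (Arntl and Nfil3). Some genes had more than 1 promoter window and were counted when any window held the motif, whereas the shares of the 32851 are per window. The Arntl ROR element lay in the window printed below and not in its other window. The 4 promoters with an E-box and that of Arntl are printed 5′ to 3′ with the matching letters in capitals; a match describes the sequence and shows no binding.
Ciart (chr3:95882179-95882478, minus strand): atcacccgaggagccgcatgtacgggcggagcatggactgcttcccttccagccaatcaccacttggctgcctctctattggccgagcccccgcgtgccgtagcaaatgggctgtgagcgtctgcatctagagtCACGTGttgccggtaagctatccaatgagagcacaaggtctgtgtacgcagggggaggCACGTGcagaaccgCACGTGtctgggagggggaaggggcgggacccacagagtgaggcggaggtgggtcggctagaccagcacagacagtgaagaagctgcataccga
Coq10b (chr1:55052520-55052819, plus strand): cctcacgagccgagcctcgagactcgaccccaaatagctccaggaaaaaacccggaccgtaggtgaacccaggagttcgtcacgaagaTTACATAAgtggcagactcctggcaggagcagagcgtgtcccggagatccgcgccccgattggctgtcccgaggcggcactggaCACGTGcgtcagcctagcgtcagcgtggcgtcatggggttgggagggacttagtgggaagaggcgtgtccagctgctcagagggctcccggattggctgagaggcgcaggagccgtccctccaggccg
Vac14 (chr8:110618317-110618616, plus strand): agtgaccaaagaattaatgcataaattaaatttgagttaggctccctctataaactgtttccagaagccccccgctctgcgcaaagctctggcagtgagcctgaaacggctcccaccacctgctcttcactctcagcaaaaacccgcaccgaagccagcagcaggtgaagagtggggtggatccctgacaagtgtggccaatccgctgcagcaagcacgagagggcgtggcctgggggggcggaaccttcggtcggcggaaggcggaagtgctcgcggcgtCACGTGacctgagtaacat
Aqp8 (chr7:123462044-123462343, plus strand): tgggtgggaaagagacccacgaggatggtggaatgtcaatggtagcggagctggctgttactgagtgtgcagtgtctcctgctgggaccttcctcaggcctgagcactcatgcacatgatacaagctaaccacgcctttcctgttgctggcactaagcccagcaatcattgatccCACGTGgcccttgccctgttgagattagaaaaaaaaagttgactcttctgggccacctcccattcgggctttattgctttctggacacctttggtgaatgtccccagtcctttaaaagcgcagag
Arntl (chr7:113207261-113207560, plus strand): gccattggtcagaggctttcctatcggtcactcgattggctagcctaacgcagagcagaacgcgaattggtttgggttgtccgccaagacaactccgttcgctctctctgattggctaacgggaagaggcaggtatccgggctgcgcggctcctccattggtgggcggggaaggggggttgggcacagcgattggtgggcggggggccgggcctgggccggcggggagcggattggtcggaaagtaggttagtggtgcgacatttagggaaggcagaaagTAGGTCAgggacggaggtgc
The Ciart window held 3 copies of CACGTG, at 116, 58 and 44 bases before the start. In Coq10b the D-box letters, read on this strand as TTACATAA, lay 162 bases before the start and the E-box 78 bases before it.

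Ciart, a repressor of CLOCK and BMAL1 (chromosome 3, 95878503 to 95882251, minus strand, ENSMUSG00000038550), showed the largest rise among called genes with a mean of at least 1 CPM. Its level was 2.99, 1.28 and 3.23 CPM in normal mice 1, 2 and 3 and 7.97, 11.6 and 10.0 CPM in disrupted mice 1, 2 and 3. The groups did not overlap, and normal mouse 2 was the lowest of the 6. The log2 fold change was 1.99 ± 0.25 (SE, n = 3 mice per group), with an adjusted p of 0.000598. Ciart passed without each mouse in turn, but a fit of only these 6 mice gave an adjusted p of 0.186.

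Hlf, a D-box-binding PAR bZIP factor (chromosome 11, 90336536 to 90390895, minus strand), was measured at 0.837, 0.996 and 1.21 CPM in the normal mice and at 1.90, 2.33 and 2.79 CPM in the disrupted mice. Every disrupted mouse lay above every normal mouse. The groups did not overlap in any of the 21 called genes, which restates the call on the same 6 mice and is no separate result; over all genes tested the share was 15.5%. Its log2 fold change was 1.21 ± 0.24 (SE), with an adjusted p of 0.0302. Without disrupted mouse 1 the adjusted p was 0.0176, and without disrupted mouse 2, disrupted mouse 3 or normal mouse 1, 2 or 3 it was 0.0797, 0.266, 0.149, 0.168 and 0.0587.

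Ciart and Hlf were 2 of 10 listed clock genes that are high at this hour in a normal mouse, and no other member passed. All 10 had a positive log2 fold change, with a median of 0.95 against -0.00 over all genes, and in 9 of the 10 every disrupted mouse lay above every normal mouse (7.91% of all genes). Per2, a repressor of the loop, stood at 12.5, 8.42 and 13.3 CPM in the normal mice and 24.6, 24.9 and 27.2 CPM in the disrupted mice. Dbp, a PAR bZIP factor, stood at 20.8, 12.1 and 23.3 CPM against 47.0, 46.2 and 42.4 CPM. For both genes the groups were well separated and normal mouse 2 was lowest. Neither passed, with log2 fold changes of 1.17 ± 0.25 for Per2 (adjusted p = 0.0677) and 1.27 ± 0.29 for Dbp (adjusted p = 0.0881). For Per3, another Period gene, the log2 fold change was 0.79 (adjusted p = 0.123), Tef 0.69 (adjusted p = 0.144) and Bhlhe41, an E-box-binding repressor, 1.11 (adjusted p = 0.134). DESeq2 gave adjusted p-values of 0.0177 for Per2, 0.0311 for Dbp, 0.0153 for Per3, 0.0127 for Tef and 0.0769 for Bhlhe41. Of 16 other settings, DESeq2 among them, Per2 passed under 5, Dbp under 3, Per3 under 1, Tef under 4 and Bhlhe41 under 2. None of these genes passed in a fit without 1 mouse. The smallest differences of the list were those of Per1, 0.46 (adjusted p = 0.332), Nr1d2, 0.31 (adjusted p = 0.717), and Nr1d1, 0.15 (adjusted p = 0.928). Nr1d1 overlapped between the groups, at 23.1 to 29.4 CPM in normal and 26.8 to 29.8 CPM in disrupted mice.

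The 6 listed clock genes that are low at this hour gave no call, with a median log2 fold change of -0.50. Arntl, which encodes BMAL1, was at 0.508, 0.655 and 0.503 CPM in the normal mice and at 0.260, 0 and 0.101 CPM in the disrupted mice. All disrupted mice were below all normal mice, and disrupted mouse 2 had no count. On its total counts this allows up to 0.0958 CPM (3 counts, counting error only). That limit was not scaled by the trimmed-mean factor, unlike the CPM values beside it. The log2 fold change of Arntl was -2.13 ± 0.50, with an adjusted p of 0.0708 in edgeR and 0.00446 in DESeq2. Arntl passed under 3 of the 16 other settings, 1 of them a fit without 1 mouse. Clock, the partner of BMAL1, was at 12.8, 17.0 and 9.00 CPM in normal and 7.45, 7.96 and 11.2 CPM in disrupted mice, so that the groups overlapped (log2 fold change -0.53, adjusted p = 0.350). Cry1, a repressor that peaks later than the Period genes, lay higher in every disrupted mouse, at 2.99 to 4.33 CPM against 1.55 to 1.91 CPM, without passing (1.03 on the log2 scale, adjusted p = 0.345). Nfil3, a repressor acting at D-boxes, differed by -0.46 on the log2 scale (adjusted p = 0.784). Npas2, a paralogue of Clock, was under 0.1 CPM in all 6 mice. Another 11 clock genes, among them Cry2, Bhlhe40, Rora, the casein kinases Csnk1d and Csnk1e and the F-box gene Fbxw11, had a median of -0.01 with no call. In none of those 11 did the groups separate.

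**Figure D2:**
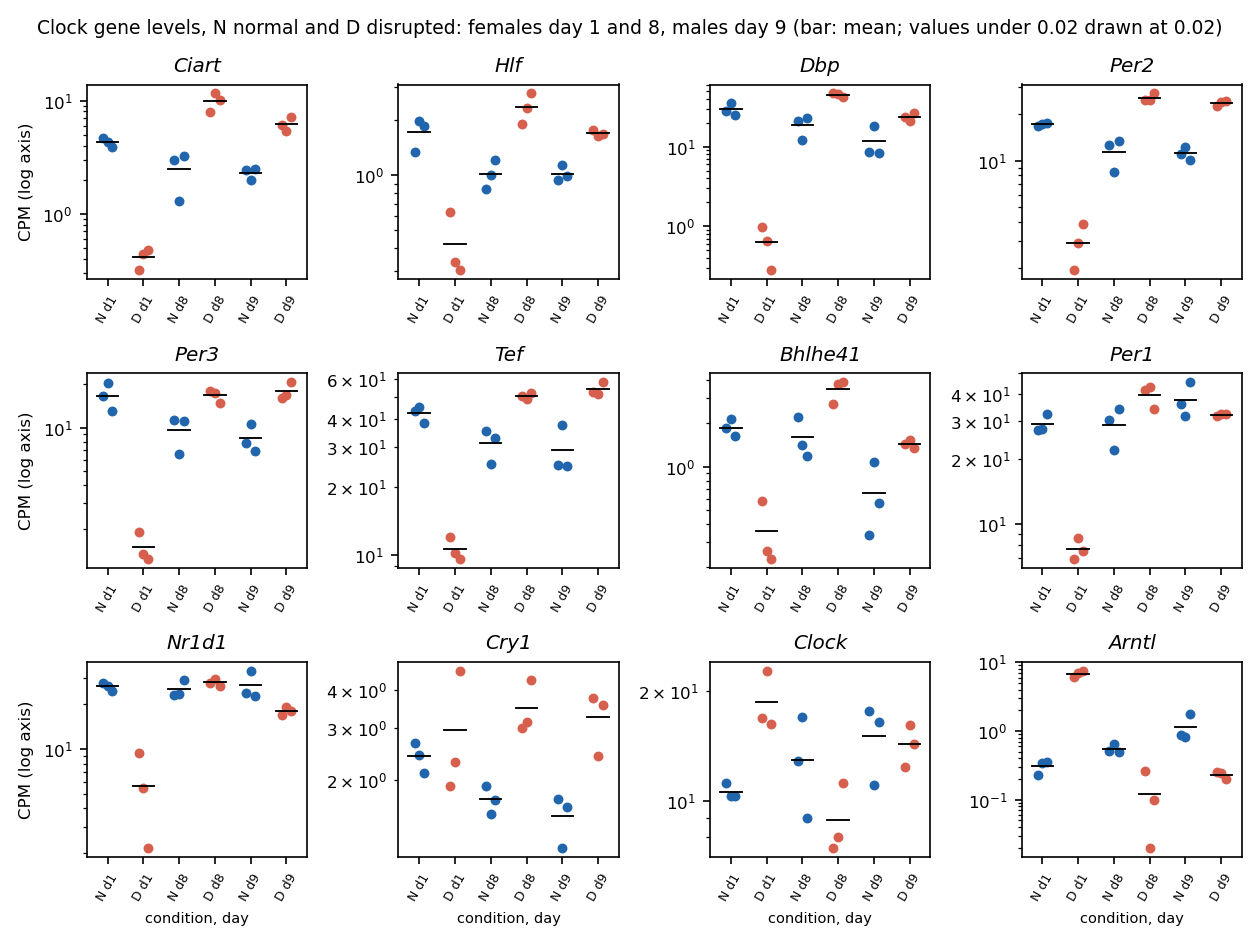
Levels of 12 clock genes in CPM (log axis) in each mouse, blue for normal circadian (N) and orange for circadian disrupted (D), in females of day 1 and day 8 and males of day 9; bars are means of 3 mice, and the disrupted day 8 mouse with no Arntl count is drawn at 0.02. On day 8 the disrupted mice lie above the normal mice for Ciart, Hlf, Dbp, Per2, Per3, Tef and Bhlhe41 and below them for Arntl, whereas on day 1 the order is the other way round.

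Outside the clock list, 8 genes rose. Coq10b (chromosome 1, 55052770 to 55072702, plus strand), a mitochondrial protein that binds coenzyme Q, was at 4.61, 3.91 and 3.73 CPM in normal and 6.62, 8.30 and 9.30 CPM in disrupted mice. The groups lay clearly apart, with a log2 fold change of 0.99 ± 0.15 (adjusted p = 0.00161). Ccbe1 (chromosome 18), a secreted protein needed for lymphatic vessel growth, was at 5.89, 5.92 and 5.65 CPM in normal and 9.19, 10.9 and 11.8 CPM in disrupted mice. The normal mice were nearly level, and the log2 fold change was 0.87 ± 0.13 (adjusted p = 0.00161). Cdr2, an antigen of paraneoplastic cerebellar degeneration in humans, rose from 2.41 to 3.08 CPM in normal to 4.21 to 5.97 CPM in disrupted mice (log2 fold change 0.89, adjusted p = 0.00642). Cdr2 did not pass without disrupted mouse 2 (adjusted p = 0.0578), disrupted mouse 3 (0.0621) or normal mouse 2 (0.124).

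Vac14, the scaffold of the PIKfyve lipid kinase complex, rose by 0.70 ± 0.13 on the log2 scale (adjusted p = 0.015), from 5.35 to 6.13 CPM in normal to 7.17 to 10.9 CPM in disrupted mice. It passed without disrupted mouse 1 (adjusted p = 0.000879) and not without disrupted mouse 2 (0.0665), disrupted mouse 3 (0.258) or normal mouse 1 (0.0691), 2 (0.134) or 3 (0.0525). Stard3, a sterol carrier of late endosomes, rose by 0.45 ± 0.09 (adjusted p = 0.0421), from 7.16 to 8.07 CPM to 9.90 to 11.4 CPM. Its adjusted p lay between 0.0651 and 0.153 without each of the 6 mice.

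Both Mfap1b, a spliceosome component, and Raver1, an RNA-binding partner of the splicing regulator PTBP1, rose by less than 2-fold. Mfap1b was at 6.94, 6.00 and 6.57 CPM in normal and 8.62, 9.85 and 9.20 CPM in disrupted mice, a log2 fold change of 0.50 ± 0.10 (adjusted p = 0.0429). Its near-identical copy Mfap1a was at 6.31 to 7.11 CPM in normal and 5.50 to 7.87 CPM in disrupted mice (log2 fold change 0.07, adjusted p = 0.891), and how reads are divided between the copies is uncertain. The sum of both copies was 13.2 ± 0.357 CPM (SD, n = 3) in normal and 16.2 ± 0.725 CPM in disrupted mice. Raver1 was at 8.22, 6.84 and 7.90 CPM in normal and 11.4, 10.3 and 10.1 CPM in disrupted mice, a log2 fold change of 0.47 ± 0.09 (adjusted p = 0.018). Of the exonic bases of Raver1, 99.7% also belong to Gm38431 on the same strand, so the split of reads between them is uncertain. Their sum was 8.50 ± 1.08 CPM in normal and 11.0 ± 0.825 CPM in disrupted mice. Mfap1b passed without disrupted mouse 1 (adjusted p = 0.0335) and lay between 0.0691 and 0.241 without each other mouse. Raver1 passed without disrupted mouse 3 (0.0438) or normal mouse 1 (0.029), with 0.0651, 0.0552, 0.168 and 0.0587 without disrupted mouse 1 or 2 and normal mouse 2 or 3. Gm43314, a transcript of unknown function that overlaps the Cth locus on the same strand without a shared exonic base, was at 0.105 to 0.329 CPM in normal and 0.441 to 1.45 CPM in disrupted mice (log2 fold change 2.19 ± 0.46, adjusted p = 0.0435). It passed without disrupted mouse 1 (0.00513) and had adjusted p-values of 0.0658 to 0.266 without each other mouse.

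Among the lower genes, Aqp8 (chromosome 7, 123462291 to 123468004, plus strand) encodes a water channel of the acinar cell membrane. Its level was 6.31, 4.43 and 6.84 CPM in the normal mice and 3.27, 2.60 and 2.77 CPM in the disrupted mice. The lowest normal mouse, mouse 2, stood above the highest disrupted mouse, mouse 1. The log2 fold change was -1.02 ± 0.17 (adjusted p = 0.0046), with 0.0619 without disrupted mouse 3 and 0.0572 without normal mouse 3.

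A kinase that makes sphingosine 1-phosphate, Sphk2, and a receptor for that lipid, S1pr2, were both lower. Sphk2 (chromosome 7, 45709467 to 45718002, minus strand) was at 9.30, 8.47 and 8.91 CPM in normal and 5.79, 5.80 and 5.10 CPM in disrupted mice. The spread within each group was small beside the gap, and the log2 fold change was -0.68 ± 0.09 (adjusted p = 0.000598). Sphk2 overlaps Dbp, with which it shares 539 exonic bases (13% of its own) on the opposite strand, and it shares 373 with Rpl18. Whether reads were counted by strand is not given in the sources used here. Dbp, as given above, differed in the opposite direction. S1pr2 was at 2.39, 2.65 and 2.43 CPM in normal and 1.64, 1.18 and 0.957 CPM in disrupted mice, a log2 fold change of -1.0 ± 0.19 (adjusted p = 0.02). S1pr2 passed without disrupted mouse 1 (0.0037) and had adjusted p-values of 0.0606 to 0.266 without each other mouse.

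Exchange factors for small GTPases, a Ras association protein and a Ran-binding protein were also among the 11. Arhgef38, a guanine nucleotide exchange factor, was at 1.41, 2.12 and 2.04 CPM in normal and 0.779, 0.574 and 0.873 CPM in disrupted mice (log2 fold change -1.29 ± 0.22, adjusted p = 0.00595). Spata13, an exchange factor for Rac and Cdc42, fell by 0.60 ± 0.12 on the log2 scale (adjusted p = 0.0421), from 6.91 to 7.32 CPM in normal to 4.01 to 5.63 CPM in disrupted mice. Rassf3, a Ras association domain protein, was at 12.2, 13.4 and 13.2 CPM in normal and 8.70, 8.67 and 7.77 CPM in disrupted mice. Both groups were nearly level, with a log2 fold change of -0.63 ± 0.09 (adjusted p = 0.00161). Ranbp3l, a Ran-binding protein that exports Smad proteins from the nucleus, was at 2.30, 2.54 and 1.95 CPM in normal and 0.831, 1.15 and 0.654 CPM in disrupted mice. This was the largest fall of the 11, -1.42 ± 0.28 (adjusted p = 0.033). Arhgef38 did not pass without disrupted mouse 2 (0.0563) or normal mouse 2 (0.112) or 3 (0.0572). Spata13 passed without disrupted mouse 1 (0.00513) and lay between 0.0802 and 0.266 without each other mouse, and Ranbp3l passed without disrupted mouse 2 (0.049) and lay between 0.0587 and 0.267 without each other mouse.

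Ypel2, of the Yippee-like family, was at 6.40, 7.03 and 6.90 CPM in normal and 3.38, 2.90 and 2.25 CPM in disrupted mice (log2 fold change -1.27 ± 0.23, adjusted p = 0.0187). Naa35, a subunit of the NatC protein acetyltransferase, showed the smallest fall, -0.42 ± 0.09 (adjusted p = 0.0435), from 7.24 to 7.76 CPM to 5.17 to 6.07 CPM. Naa35 shares 14.6% of its exonic bases with Golm1 on the opposite strand. The antisense transcript 4933431E20Rik fell from 8.58, 8.52 and 7.34 CPM to 5.17, 4.45 and 4.57 CPM (log2 fold change -0.79 ± 0.11, adjusted p = 0.000598), and 14.1% of its exonic bases overlap Eps8l3 on the opposite strand. The noncoding 1810019D21Rik fell from 8.49, 9.70 and 6.39 CPM to 3.84, 5.36 and 4.87 CPM (log2 fold change -0.81 ± 0.14, adjusted p = 0.00507); 7.67% of its exonic bases overlap Esrp2. In these 4 genes no disrupted mouse reached the lowest normal mouse. Ypel2 passed without disrupted mouse 1 (0.0189) and lay between 0.0629 and 0.241 without each other mouse, Naa35 lay between 0.0552 and 0.254 without each of the 6 mice, and 1810019D21Rik had 0.122 without normal mouse 2.

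**Figure D3:**
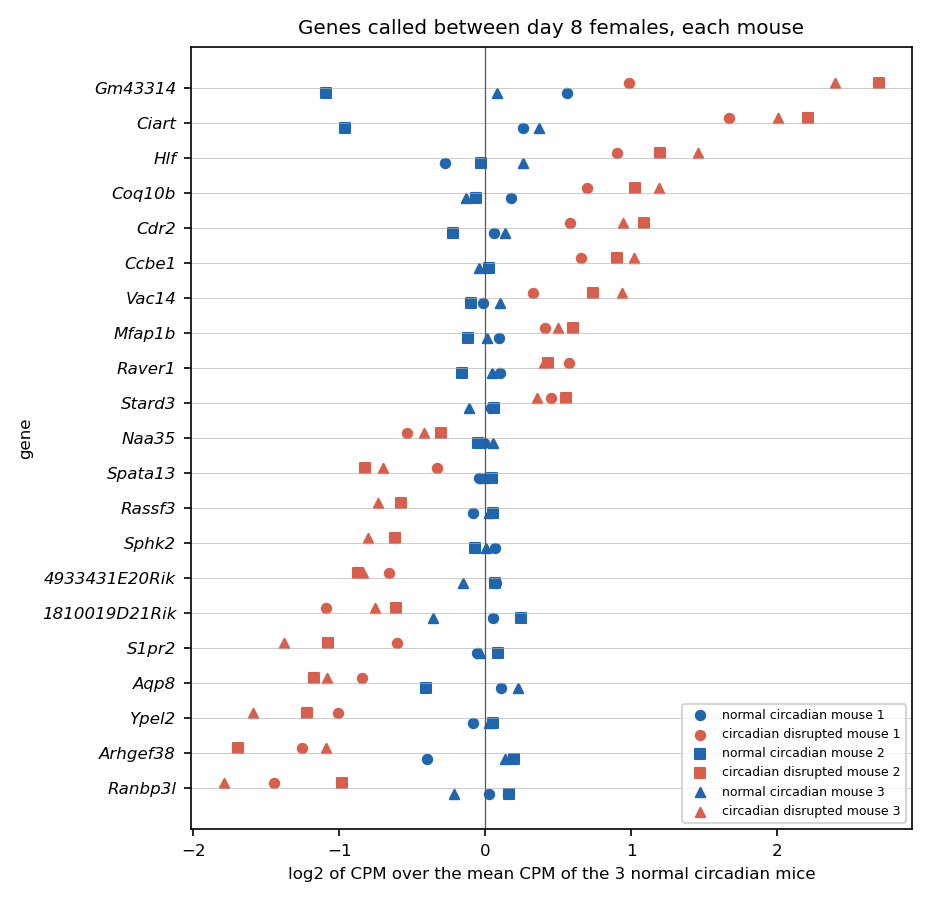
Each of the 21 called genes is a row and each mouse a symbol, at the log2 of its CPM over the mean CPM of the 3 normal mice; blue is normal circadian, orange circadian disrupted. In every row the 3 disrupted mice lie to 1 side of the 3 normal mice, and disrupted mouse 1 is the nearest of them to the normal mice for 8 of the 10 higher genes.

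Coq10b, Ccbe1, 4933431E20Rik, Sphk2 and Rassf3 passed under all 16 other settings tried, and Ciart under 15 of the 16. Aqp8 and 1810019D21Rik passed under 14, Cdr2 and Arhgef38 under 13, Hlf, Ranbp3l and Ypel2 under 10, and the other 8 genes under 9 or fewer, Gm43314 being tested under only 15. Just outside the threshold lay Kri1, a nucleolar protein (0.61 on the log2 scale, adjusted p = 0.0515), Rnf145, a ubiquitin ligase (0.55, adjusted p = 0.0589), and the zinc finger gene Zfp101 (-0.66, adjusted p = 0.0589); just inside lay Mfap1b, Gm43314 and Naa35.

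Compared with the separate females of day 1, the day 8 genes lay on the other side. In the 6 females of day 1, 209 genes were called (1.49%), 0.65% higher and 0.843% lower. All 21 genes called on day 8 had the opposite sign there (52.8% of all genes tested), and 10 of the 21 passed on day 1 too, which is 47.6% of the day 8 calls and 4.79% of the day 1 calls. Ciart was 3.37 lower on the log2 scale in disrupted mice of day 1 (log2 fold change -3.37 ± 0.34, adjusted p = 6.36e-06), Hlf had -2.02 (0.000104), Coq10b -0.90 (0.00292), Ccbe1 -0.64 (0.0127) and Stard3 -0.67 (0.000204). In the other direction Rassf3 had 0.66 (0.000153), Ypel2 1.28 (0.00203), Ranbp3l 1.49 (0.00191), Aqp8 0.62 (0.0388) and 1810019D21Rik 0.66 (0.00567). Day 8 and day 1 share no mice. The day 8 effect minus the day 1 effect passed for 286 of all genes (2.04%). It passed for 20 of the 21, all but Spata13, but that difference contains the day 8 effect by which the 21 were chosen, so their count is a description and is not read against the share of all genes.

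Among the clock genes, all 10 that are high at this hour fell in the disrupted females of day 1, with a median log2 fold change of -2.31, and the difference between the days passed for all 10. Dbp had a log2 fold change of -5.56 on day 1, Per3 -3.47, Per2 -2.55 and Nr1d1 -2.22, against 1.27, 0.79, 1.17 and 0.15 on day 8. Arntl had 4.45 on day 1 and -2.13 on day 8. Of the 6 genes low at this hour 3 rose on day 1, and 4 of the 6 differences passed.

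The normal females of day 1 gave another reference, and values set against them share mice with the comparisons above. Ciart averaged 4.29 CPM in normal mice of day 1, 2.5 CPM in normal mice of day 8 and 9.86 CPM in disrupted mice of day 8. The disrupted day 8 mice were higher than the normal day 1 mice by 1.20 on the log2 scale (adjusted p = 0.0351), and the normal mice of the 2 days differed by -0.79 (adjusted p = 0.416). Per3 averaged 16.6 CPM in normal mice of day 1, 9.64 CPM in normal and 16.7 CPM in disrupted mice of day 8, so that the disrupted mice differed from the earlier normal mice by 0.01 (adjusted p = 0.995). Coq10b averaged 4.43, 4.08 and 8.07 CPM in the same order, Aqp8 5.14, 5.86 and 2.88 CPM, and Arhgef38 1.81, 1.86 and 0.742 CPM. For these 3 genes the normal mice of both days were close and the disrupted mice of day 8 stood apart. Against normal day 1 females, 46 of all genes passed (0.329%), and 5 of the 21 did: Ciart, Ccbe1, Coq10b, Aqp8 and Arhgef38. That comparison holds the disrupted day 8 mice by which the 21 were chosen. Their count is therefore a description and is not read against the share of all genes. Between the normal females of day 8 and day 1, the adjusted p-values of the 21 genes lay between 0.244 and 0.974.

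Males of day 9 formed another separate set of mice, in which sex and day cannot be told apart. There 97 genes were called (0.693%). Of the 21 genes called in day 8 females, 19 had the same sign in these males (58.7% of all genes), and 3 passed in the same direction: Ciart (log2 fold change 1.44 ± 0.26, adjusted p = 0.0118), Ccbe1 (0.69 ± 0.13, 0.0125) and Ranbp3l (-1.50 ± 0.34, 0.0383). These are 14.3% of the day 8 calls and 3.09% of the day 9 calls. In 13 of the 21 the male groups did not overlap in the same direction (11.0% of all genes). Ciart averaged 2.30 CPM in normal and 6.23 CPM in disrupted males. The 2 genes with the opposite sign were Stard3 (-0.13, adjusted p = 0.677) and 1810019D21Rik (0.38, adjusted p = 0.243). The female effect minus the male effect passed for 4 of all genes (0.0286%), 1810019D21Rik being the only one of the 21 among them. In the males Arntl passed (-2.28, adjusted p = 0.00863), as did Per3 (1.08, adjusted p = 0.0149) and Tef (0.89, adjusted p = 0.028), and the 10 clock genes high at this hour had a median of 0.95. Of these 10, Nr1d1 was lower in every disrupted male, at 17.01 to 19.21 CPM against 22.85 to 33.69 CPM in normal males. Per1 overlapped, at 31.88 to 32.36 CPM in disrupted and 31.65 to 45.55 CPM in normal males. The other members were higher in every disrupted male than in every normal male.

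**Figure D4:**
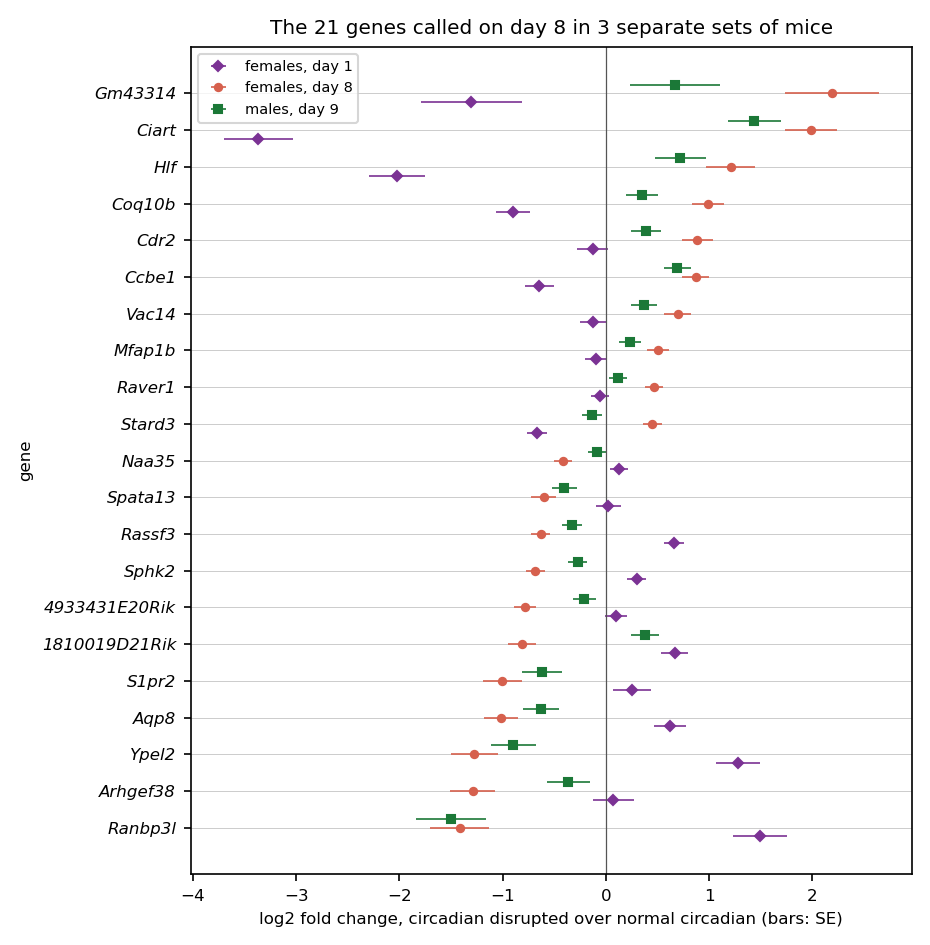
Log2 fold change, disrupted over normal circadian, with its SE, of the 21 genes called on day 8 in females of day 1 (purple diamonds), females of day 8 (orange circles) and males of day 9 (green squares). The day 1 values lie on the other side of 0 from the day 8 values for all 21 genes, and the day 9 values lie on the day 8 side for 19.

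Fitted apart from all other mice, the 6 day 8 females gave 20 called genes, 11 of them shared with the 21. Of these 20, 19 had the opposite sign in a separate fit of the 6 day 1 females (53.6% of all genes), where 11 passed. All 20 had the same sign in a separate fit of the 6 day 9 males, where 3 passed. The share of all genes passing in these separate fits is not given here, so the counts passing are a description only. Of all genes tested in both fits, 41.2% had the opposite sign in those males.

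Outside the core clock no listed gene passed on day 8, so the groups below are given as values. Of 19 clock-following genes, 15 had a positive log2 fold change (median 0.22), and 5 (26.3%, against 7.91% of all genes) had all disrupted mice above all normal mice: Usp2, Tspan4, Por, Pdxk and Herpud1. Usp2, a rhythmic deubiquitinase, was at 13.7, 9.12 and 13.5 CPM in normal and 23.1, 25.9 and 23.2 CPM in disrupted mice. It lay apart between the groups, with a log2 fold change of 0.99 ± 0.21 (adjusted p = 0.065 in edgeR and 0.000431 in DESeq2). Usp2 passed under 5 of the 16 other settings and in no fit without 1 mouse.

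Among 27 genes of the endoplasmic reticulum stress response, which acinar cells use heavily for folding secreted enzymes, the median was 0.22. The log2 fold change was positive for 19 of them and negative, down to -0.15, for 8. Of the members 33.3% had separate groups, 8 of them with the disrupted mice above and 1 with them below (7.91% and 7.58% of all genes). The members named here are all positive. Herpud1, a part of the degradation machinery, is also one of the clock-following genes above. It was at 242, 189 and 300 CPM in normal and 336, 378 and 332 CPM in disrupted mice (log2 fold change 0.52 ± 0.15, adjusted p = 0.187). The chaperone gene Hyou1 had 0.41 (adjusted p = 0.226), the co-chaperone gene Dnajb9 0.55 (adjusted p = 0.201), the transcription factor gene Atf4 0.31 (adjusted p = 0.234) and the main chaperone gene Hspa5 0.28 (adjusted p = 0.453). The list median ranged from 0.10 to 0.30 when each mouse was left out, 0.10 being the value without disrupted mouse 3.

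Of 21 cholesterol synthesis and uptake genes, 19 had a negative log2 fold change, as had 7104 of the 14000 genes tested, and the median was -0.20. All disrupted mice were below all normal mice in 9 of them (42.9%, against 7.58% of all genes). Dhcr7, which acts late in synthesis, was at 4.34, 3.59 and 4.06 CPM in normal and 2.73, 2.73 and 2.65 CPM in disrupted mice. Its groups did not overlap, and it did not pass, with a log2 fold change of -0.56 ± 0.15 (adjusted p = 0.130). Fdps, which makes farnesyl diphosphate, had -0.53 (adjusted p = 0.488). The same list had a median of 0.35 in the females of day 1 and 0.00 in the males of day 9.

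Of 30 cell cycle genes 29 had a negative log2 fold change and the median was -0.95, but the disrupted mice were not alike. Relative to the mean of the normal mice, the median over the list was -0.03 in disrupted mouse 1, -1.41 in disrupted mouse 2 and -1.43 in disrupted mouse 3, against -0.17 to 0.36 in the normal mice. The median of the fitted changes was -1.76 without disrupted mouse 1, -0.71 without disrupted mouse 2 and -0.54 without disrupted mouse 3. Foxm1, a cell cycle transcription factor, was at 0.927, 0.734 and 0.592 CPM in normal and 0.415, 0.135 and 0.0671 CPM in disrupted mice (adjusted p = 0.340). Mouse 1 is also the library with the highest B cell and red blood cell marker sums.

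Of 13 regenerating and injury genes measured, 5 had separate groups, all lower in the disrupted mice (38.5%, against 7.58% of all genes). Reg3b, an acute-phase secretory protein, was at 61.0, 122 and 65.5 CPM in normal and 24.9, 30.3 and 41.9 CPM in disrupted mice (log2 fold change -1.35 ± 0.80, adjusted p = 0.582). Reg2 was at 2214, 3218 and 2345 CPM in normal and 1154, 1783 and 1504 CPM in disrupted mice (-0.81, adjusted p = 0.623). The median of the list was -0.19, and -0.03 without normal mouse 2.

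The 33 acinar enzyme genes had a median of 0.04 and 9 acinar transcription factors one of -0.01. Prss3, of the enzyme list, was at 158, 838 and 305 CPM in normal and 320, 1704 and 3034 CPM in disrupted mice. Its log2 fold change was 1.96 ± 0.90 (adjusted p = 0.453). The 21 immediate early genes had a median of 0.07 in these females and -1.89 in the males of day 9. Dusp1, a phosphatase of that list, had a log2 fold change of 0.01 in the females (adjusted p = 0.999) and -2.06 in the males (adjusted p = 7.18e-05), and the difference between them passed (2.07, adjusted p = 0.0123). The 12 ductal genes had a median of -0.28, which was -0.43 without disrupted mouse 1 and -0.16 without disrupted mouse 3, and 22 islet genes one of -0.06, which was 0.22 without disrupted mouse 1.

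The largest list medians were those of immune and blood genes, for which disrupted mouse 2 lay below disrupted mice 1 and 3. The 14 B cell genes had a median of 4.00 with no call, 10 T cell genes 1.70, 7 plasma cell genes 1.48 and 6 red blood cell genes 1.87. Relative to the normal mean, the B cell list had a median of 4.12, -0.41 and 2.98 in disrupted mice 1, 2 and 3. Cd79a, a subunit of the B cell receptor, was at 0.0598, 0.131 and 0.0888 CPM in normal and 3.25, 0.101 and 1.31 CPM in disrupted mice, so that mouse 2 lay among the normal mice (adjusted p = 0.244). Without disrupted mouse 1 the median was 0.02 for red blood cell genes, 0.82 for T cell genes, 0.69 for plasma cell genes and 3.00 for B cell genes. The plasma cell median was 2.65 without normal mouse 2.

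**Figure D5:**
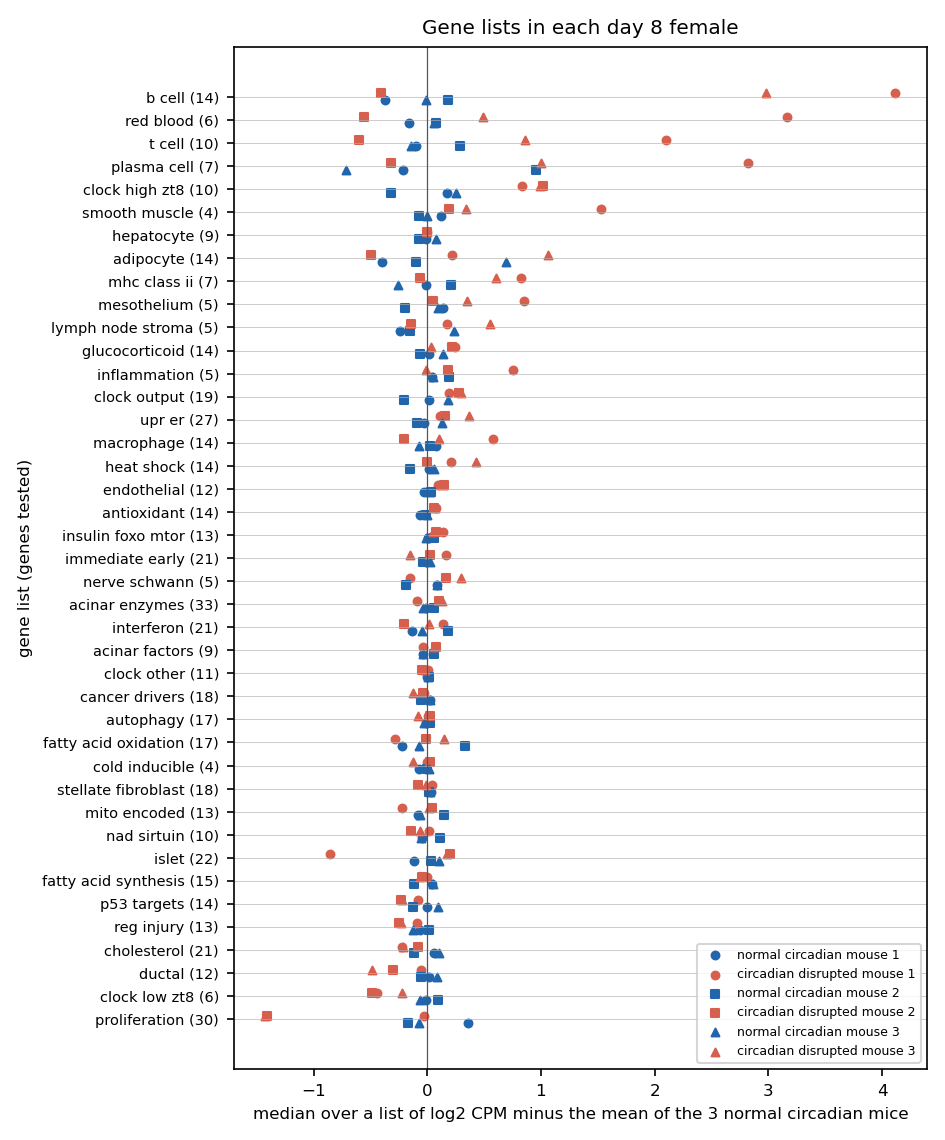
Each row is a gene list with the number of its genes tested, and each symbol a mouse, at the median over the list of log2 CPM minus the mean of the 3 normal mice. The 3 disrupted mice lie together above the normal mice for the clock genes high at this hour, and apart from each other for B cell, red blood cell and cell cycle genes, where disrupted mouse 3 at -1.43 is covered by mouse 2.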

How the data were processed

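Whole-pancreas RNA of 24 mice was sequenced from TruSeq libraries, per the labels' protocols. The authors deposited 1 table of expected counts per gene. Per the submitters' processing notes, bcl2fastq 2.20, STAR 2.5.3a, RSEM and edgeR 3.28.0 were used with GRCm38.p5. The sources used here do not give the annotation release or strand setting. Rounding the deposited expected counts to whole numbers changed 7.97% of values. Of 51912 gene IDs, 51719 matched the GENCODE M21 annotation of GRCm38, which gave symbols and coordinates.

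Genes were filtered with filterByExpr, leaving 14000, and fitted in edgeR 4.0.16 (R 4.3.3) with trimmed-mean factors of 0.943 to 1.12 and robust quasi-likelihood tests over all 24 mice in 8 groups, with 16 residual degrees of freedom. CPM values use the trimmed-mean library sizes. DESeq2 1.42.0 and limma 3.58.1 were alternatives. Replicates are separate mice, and intervals from counts cover counting error only.

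The genes named are all clock list genes tested, the called genes with at least 1 CPM up to 12 per direction filled by smallest p, the members of smallest p or separate groups of the other lists, the 8 genes of smallest p for each difference of effects, and Gm43314, which falls below 1 CPM. Some genes that these rules select are not reported here. Members and the 43 gene lists were chosen with earlier results of these data known. Promoters came from RefSeq (GRCm38.p6). Replicate numbers were not used to pair mice.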

Additional observations from a re-analysis of the deposited data

Results flagged for a closer look

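Results were singled out because the effect of condition, disrupted over normal, differed between separate sets of mice by edgeR's test of the difference itself. All values here are the log2 fold change in females of day 8 minus that in the other set, and a positive value means a higher value on day 8. Groups of 3 mice are too small for a test of single outlying mice.

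Against the females of day 1, the clock genes with a higher effect on day 8 had differences of 2.39 for Per1, 3.72 for Per2, 4.26 for Per3, 6.83 for Dbp, 2.68 for Tef, 3.23 for Hlf, 2.37 for Nr1d1, 2.5 for Nr1d2, 5.36 for Ciart, 3.51 for Bhlhe41, 1.66 for Cry2 and 1.61 for Bhlhe40. The clock genes with a lower effect had differences of -6.58 for Arntl, -4.94 for Npas2, -1.34 for Clock and -3.26 for Nfil3. Their adjusted p-values ran from 2.17e-07 for Ciart and Per3 to 0.0489 for Nr1d1.

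Of the genes called on day 8 outside the clock list, the higher ones had differences of 1.89 for Coq10b, 1.02 for Cdr2, 1.51 for Ccbe1, 0.82 for Vac14, 0.60 for Mfap1b, 0.52 for Raver1, 1.12 for Stard3 and 3.49 for Gm43314. The lower ones had differences of -2.91 for Ranbp3l, -1.36 for Arhgef38, -2.55 for Ypel2, -1.64 for Aqp8, -1.26 for S1pr2, -1.48 for 1810019D21Rik, -0.88 for 4933431E20Rik, -0.98 for Sphk2, -1.29 for Rassf3 and -0.54 for Naa35. Their adjusted p-values ran from 1.1e-06 for Rassf3 to 0.028 for Mfap1b. These genes, like Ciart and Hlf above, were chosen because their day 8 effect passed. Every difference given for them, also that against the males below, contains that effect, so the values are a description.

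Among other genes named by the same rules, the differences were 0.80 for Rnf145, 3.62 for Usp2, 1.29 for Tspan4, 1.64 for Herpud1, 5.17 for Cpt1b and 1.30 for Por, and -0.74 for Zfp101, -0.87 for Lpl, -0.85 for Dhcr7, -2.45 for Eda2r, -0.69 for Fam13b and -1.02 for Gm12258. These genes were named by small p-values or separate groups on day 8, or by a small p for a difference of effects. Each difference contains the day 8 effect, so these values too are a description. The Cpt1b difference had an SE of 1.27 and an adjusted p of 0.0289. Of the exonic bases of Cpt1b, 81.4% also belong to Gm44502 on the same strand, so the split of reads is uncertain.

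Against the males of day 9, in which sex and day cannot be told apart, the difference was -1.19 for 1810019D21Rik (adjusted p = 0.0123), 2.07 for Dusp1 (adjusted p = 0.0123), -1.34 for Gm38102 (adjusted p = 0.0331) and 1.14 for Foxa3 (adjusted p = 0.0375). Gm38102 shares 76.0% of its exonic bases with AI480526 on the opposite strand.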

How the results depend on the processing

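The number of genes called on day 8 was 21, and lay between 20 and 29 under other scaling (22 and 27), a stricter filter (27), a fit that was not robust (29) and fits of the 12 females (23) or the 6 (20). It was 78 with DESeq2, which held all 21, 36 with limma-voom and 98 with no filter on low counts over 27185 genes, and 8 with a fold threshold of 2. Leaving out each mouse gave 7 to 38, the most without disrupted mouse 1 (38), then 12 and 8 without normal mice 1 and 3, 9 and 10 without disrupted mice 2 and 3, and 7 without normal mouse 2. Fewer mice and, without a filter, more genes enter these fits; the cause of the higher DESeq2 count was not tested.

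The difference between day 8 and day 1 gave 172 to 342 genes without each mouse, the least without normal mouse 2 (172), normal mouse 1 (181) or disrupted mouse 3 (189), and 242 to 402 under other settings, against 286. The difference between females of day 8 and males of day 9 gave 4 genes, 21 with no filter, 14 when not robust, and 0 to 4 without each mouse; without normal mouse 2 edgeR called 0, with 861 at an unadjusted p under 0.05, and with all mice DESeq2 called 32 and limma-voom 1. Without disrupted mouse 2 it called 1, and without disrupted mouse 3 or normal mouse 1 it called 2. The share of day 8 calls with the opposite sign on day 1, 100%, was 80.8% to 100% elsewhere, with 80.8% in DESeq2, 81.25% with no filter and 81.58% without disrupted mouse 1; this measure was chosen after seeing the data.

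Genes near 0 changed sign. Csnk1d had -0.011 under upper quartile scaling and -0.032 to 0.039 without each mouse. Csnk1e had -0.13 to 0.15 and Zfp36 -0.093 to 0.42 without each mouse. Fbxl21 had -0.0028 in the 12 females, -0.013 under upper quartile scaling and -0.18 to 0.16 without each mouse. Fbxw11 had 0.0017 with no filter and -0.062 to 0.046 without each mouse. Dusp1 had -0.02 with limma-voom, -0.0074 under upper quartile scaling and -0.11 to 0.13 without each mouse.

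Whether the replicate numbers pair the mice is not given. Deviations of same-numbered mice correlated at 0.0423, -0.0772 and -0.0129, and those of differently numbered mice at -0.132 to 0.138. With 3 mice per group these correlations cannot show whether a pairing exists. A replicate block gave 25 calls on day 8 (9 higher and 16 lower, 13 shared with the 21), 242 for day 8 against day 1 and 6 for day 8 against day 9, and -0.021 for Fbxl21.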
